A study of Mus musculus with 14 samples.

Results

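The genes described here are 32 genes for ribosome biogenesis and RNA polymerase I, out of 24465 genes counted in each RNA library. They were taken by name from a fixed list and not by a cut-off on any measured value. The list was chosen with earlier results of these data known. The 32 genes were measured in Y1 cells, an established mouse adrenocortical tumour line. All groups went without serum for 48 h and then received 10% fetal bovine serum for 5 h, either alone (serum) or together with 10 ng/ml FGF-2, a fibroblast growth factor. Each group had 3 libraries of polyadenylated RNA and 2 libraries of chromatin precipitated with an antibody to H3K27ac, the acetylated lysine 27 of histone H3 that marks active promoters and enhancers. No group was left in starvation or given FGF-2 without serum, so every comparison is FGF-2 with serum against serum alone in 1 cell line, and the labels do not say whether replicates came from separate cultures. P-values then measure only the spread between these libraries, which may be technical.

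Ribosomes are built in the nucleolus. RNA polymerase I transcribes the ribosomal DNA into 1 long precursor, small nucleolar ribonucleoproteins (snoRNPs) guide its chemical modification, and assembly factors cleave it, fold it and load it with ribosomal proteins to give the small and the large subunit. Growth factors and serum are known to raise this programme in dividing cells, and the transcription factor Myc, which binds the sequence CACGTG, is known to act on many of its genes.

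Of the 32 genes, 23 rose with FGF-2 and 0 fell under the scaling used throughout, but the number depends on how the libraries are scaled to each other. The scaling was TMM, the trimmed mean of M-values, which sets the bulk of genes to no change and gives CPM, the reads of a gene scaled to a fixed library size. With library totals as the only scaling 1 gene rose, and the serum and FGF-2 libraries held nearly the same share of reads from these genes. A scaling shifts all genes alike, so by construction it hardly moves the distance from the other genes. The median of the members lay 0.43 log2 units above the median of all 10374 tested genes under TMM, upper-quartile scaling and library totals. None of the 34 H3K27ac regions within 1 kb of the members' starts passed the deposited test, while 1 region in an intron of Polr1a fell. In simulated H3K27ac data, with changes placed among all 40772 regions, at most 9% of 2-fold changes were found. Those regions had median signals of 32.6 to 41.8 per library, against 169 to 216 at the members' promoters. The share that would be found at such strong regions was not measured, so not passing does not show an unchanged promoter.

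The promoter sequences that go with these results come from RefSeq, build GRCm38.p6, in windows from 250 bases before to 50 bases after the start, which 27 of the 32 genes had. The motif CACGTG, which reads the same on both strands, was in the windows of 5 of the 27 members (18.5%), against 11.6% of 7984 tested genes, 19.4% of 108 other ribosome biogenesis genes and 8.09% of all 27025 genes with a window. A match is a run of letters and not a measured binding site. The 4 members below are those with a match and the smallest RNA p-values. The fifth was Mybbp1a. Capitals mark the motif, with 12 bases on each side, on the plus strand, which is the strand of all 4 genes.
Wdr43, chr17:71616220-71616249: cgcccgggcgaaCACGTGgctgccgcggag
Tsr1, chr11:74898092-74898121: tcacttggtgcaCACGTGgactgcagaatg
Nop2, chr6:125131811-125131840: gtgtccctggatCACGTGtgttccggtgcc
Pes1, chr11:3963965-3963994: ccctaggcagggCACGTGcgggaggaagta
The first base of the motif lay 60 bases before the start of Nop2 and 2, 17 and 24 bases after the starts of Pes1, Wdr43 and Tsr1, counted from the start that the window was cut around. For comparison, Rrp9, the member with the smallest RNA p-value, had no match in its window, and its 250 bases before the start (plus strand) follow.
Rrp9, chr9:106477059-106477308: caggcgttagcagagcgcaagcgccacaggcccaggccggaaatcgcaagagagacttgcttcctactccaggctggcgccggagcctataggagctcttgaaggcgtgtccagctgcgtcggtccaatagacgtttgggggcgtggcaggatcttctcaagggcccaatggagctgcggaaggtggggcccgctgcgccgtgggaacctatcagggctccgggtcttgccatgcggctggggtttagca
The windows of the members had a median GC content of 58.8%, against 61.0% for tested genes. Data on these promoters are given with the H3K27ac regions.

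The RNA libraries held 5625004 to 12696426 reads in genes, and the serum libraries 1 to 3 had TMM factors of 1.15, 1.15 and 1.07 against 0.911, 0.893 and 0.864 for the FGF-2 libraries. A set of 707 genes passed the edgeR test at an adjusted p of 0.05 with a TMM log2 fold change of at least 1. These genes took 5.12%, 5.27% and 8.33% of the reads in serum and 20.3%, 20.4% and 23.5% with FGF-2. They were chosen as higher with FGF-2, so their larger share in that group is by construction. By this share serum library 3 was the serum library nearest to the FGF-2 group, and FGF-2 library 3 the farthest from serum. Of the adrenocortical markers, Nr5a1, Star, Cyp11a1, Cyp11b1, Scarb1 and Fdx1 were present in all 6 libraries, Cyp21a1 and Nr0b1 were listed at 0 and Mc2r and Hsd3b1 were at most 1.99 CPM. The summed adrenocortical markers ranged from 664 to 911 CPM in serum and from 2267 to 3752 CPM with FGF-2, and without Star, the cholesterol transporter of steroid synthesis, from 546 to 630 and from 471 to 590 CPM. Star rose from 97.0, 117 and 281 to 2012, 1715 and 3162 CPM (log2 3.80, edgeR adjusted p = 0.00129), while the steroidogenic enzymes Cyp11a1 (-0.76, edgeR adjusted p = 0.0454) and Cyp11b1 (-1.40, edgeR adjusted p = 0.0077) fell. The summed fibroblast and capsule markers ranged from 3062 to 3824 CPM in serum and from 2236 to 3099 CPM with FGF-2. Col1a1 alone had 2509 to 3177 CPM in serum and 1830 to 2634 CPM with FGF-2. Col3a1 and Col6a1 were present in all 6 libraries, and Gli1 and Nr2f2 were at most 28.8 CPM. Pdgfra was at most 2.02 CPM, and Col1a2 and Dcn were listed at 0. The summed markers of endothelium and blood reached at most 8.19 CPM in a library, and those of the adrenal medulla 7.02 CPM. The part of the marker differences in the values below was not tested.

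Transcripts of most members were more abundant with FGF-2 on the TMM scale, by less than 2-fold each. Among the 31 members that passed the filter on low counts, 23 rose (74.2%) and 0 fell in edgeR's quasi-likelihood test with Benjamini-Hochberg adjustment over all genes at a false discovery rate (FDR) of 0.05. Over all 10374 genes tested, 22.1% rose and 24.2% fell. The log2 fold changes of the 31 members ran from 0.090 (Nhp2) to 0.68 (Rrp9), with standard errors (SE) of 0.097 to 0.20 and a median of 0.41, a 1.32-fold rise, while the median of all genes was -0.023. In 27 of the 31 every FGF-2 library lay above every serum library, which held for 28.1% of all genes, and the reverse held for 0 of the 31 and for 29.4% of all genes. The 8 members that did not pass were Nop58, Nhp2, Nolc1, Polr1a, Nop14, Rrp12, Bop1 and Noc2l, and the thirty-second member, Nop56, was listed at 0 in all 6 libraries. RNA per cell was not measured, so a change in a gene's share of the RNA and a change in its copies per cell cannot be told apart.

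**Figure D1:**
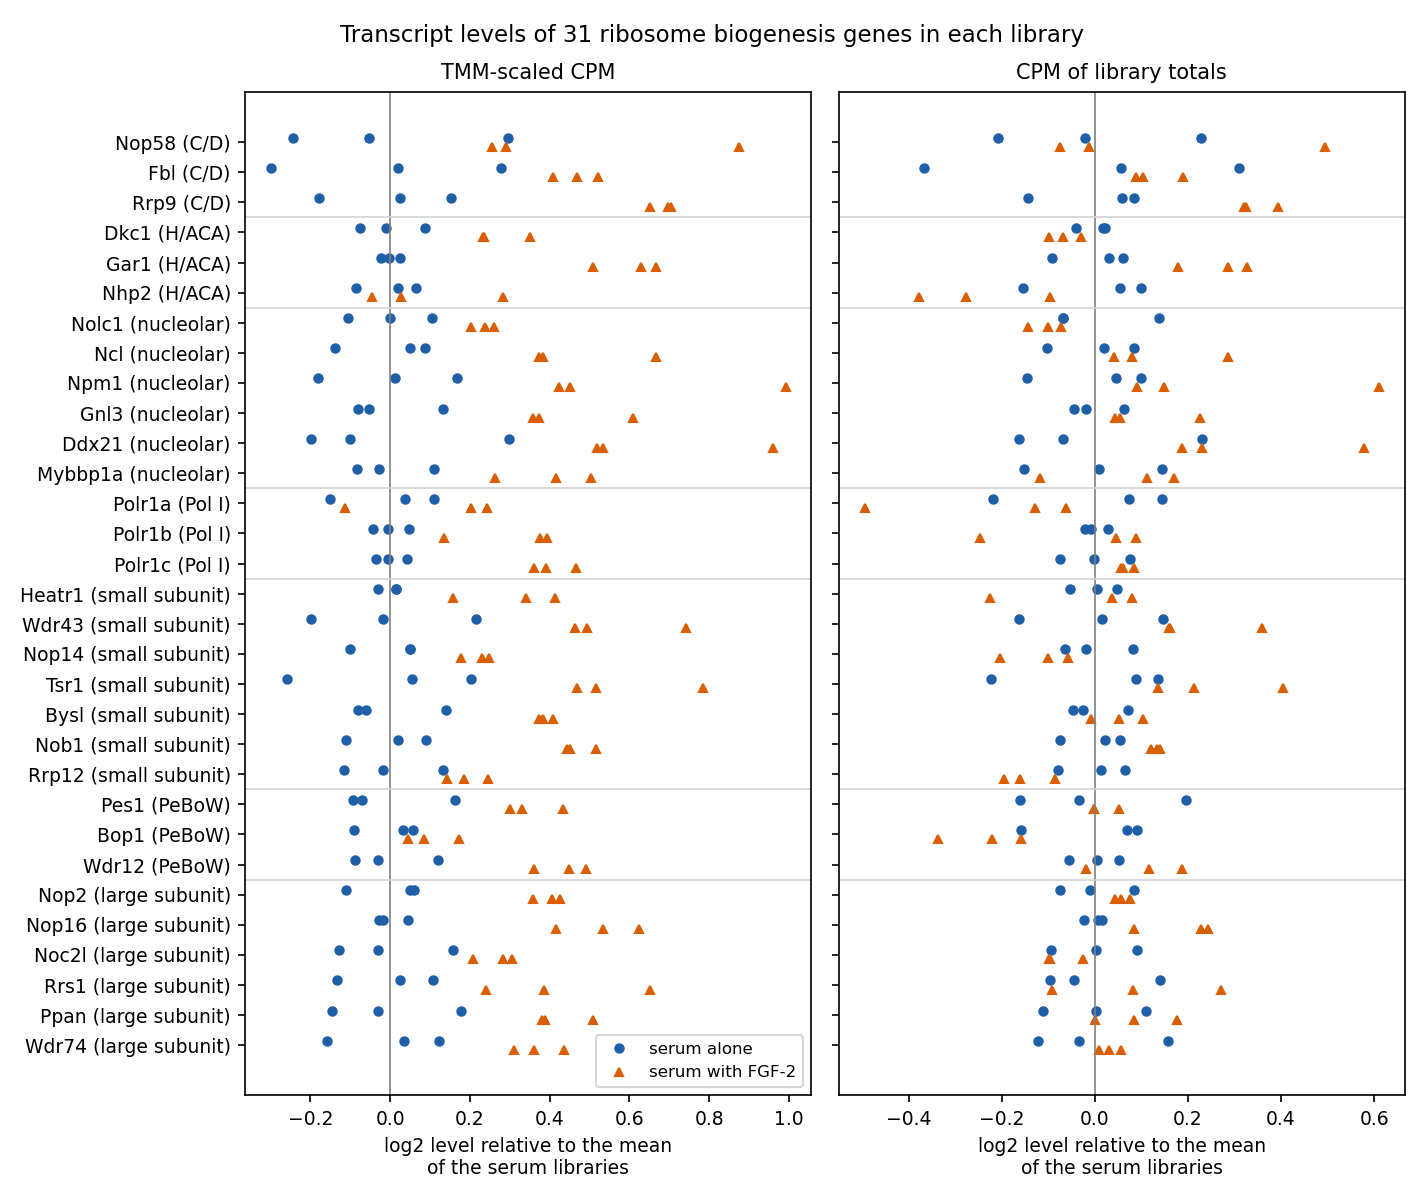
Level of each of the 31 tested members in each of the 6 RNA libraries, as log2 relative to the mean of the 3 serum libraries (horizontal axis), with TMM-scaled CPM on the left and CPM of library totals on the right. Points are single libraries, serum alone as circles and serum with FGF-2 as triangles, and members are ordered by role. On the left the triangles lie to the right of all circles for 27 members, and on the right for 6.

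The box C/D snoRNP adds methyl groups to ribosomal RNA at sites set by its guide RNA. Its members here are the scaffold proteins Nop56 and Nop58, the methyltransferase Fbl (fibrillarin) and Rrp9, a protein of the related U3 particle that is needed for the first cleavages of the precursor. Rrp9 had 75.5, 65.6 and 82.5 TMM-scaled CPM in serum libraries 1 to 3 and 120, 117 and 121 CPM in FGF-2 libraries 1 to 3. All FGF-2 libraries lay above all serum libraries and close to each other, and the log2 fold change was 0.68 ± 0.11 (SE, n = 3 and 3, edgeR adjusted p = 0.000925), the smallest p-value of any member. Fbl rose from 52.7 ± 10.4 to 71.9 ± 2.86 CPM (SD, n = 3 each), a log2 change of 0.44 ± 0.14 (edgeR adjusted p = 0.0285), which failed the test without serum library 2, serum library 3 or FGF-2 library 2 (edgeR adjusted p = 0.0799, 0.0614 and 0.0781). Nop58 had 219, 192 and 279 CPM in serum and 278, 271 and 416 CPM with FGF-2. The third serum library lay above FGF-2 libraries 1 and 2, and the log2 difference of 0.49 ± 0.20 did not pass (edgeR adjusted p = 0.0685), although it did without serum library 3 (0.64, edgeR adjusted p = 0.0236). Nop56 had no read in any library, which with 3 counts as the limit allows up to 0.236 to 0.533 CPM of the reads in genes, without TMM scaling. Its start nevertheless carried an H3K27ac peak in all 4 chromatin libraries, with the authors' fold enrichment between 34.1 and 48.7, and 5 snoRNA genes lie inside it in RefSeq. The cause of the listed 0 was not tested.

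The H/ACA snoRNP converts uridines to pseudouridine, with Dkc1 (dyskerin) as its enzyme and Gar1 and Nhp2 as core proteins. Gar1 had 49.5, 50.4 and 48.8 CPM in serum and 76.7, 70.6 and 78.8 CPM with FGF-2. The serum libraries were nearly equal, the groups were far apart, and the log2 fold change was 0.60 ± 0.10 (SE, edgeR adjusted p = 0.00111). Nhp2, of the same particle, had 91.2, 88.3 and 82.2 CPM in serum and 88.8, 84.5 and 106 CPM with FGF-2. Only FGF-2 library 3 lay above serum, and the log2 difference of 0.090 ± 0.12 did not pass (edgeR adjusted p = 0.549). Dkc1 rose from 175 ± 9.98 to 212 ± 9.93 CPM, with a log2 change of 0.27 ± 0.10 that lay just inside the threshold (edgeR adjusted p = 0.0481). Leaving out any library except serum library 3 took Dkc1 over the threshold (edgeR adjusted p between 0.0744 and 0.191).

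Abundant nucleolar proteins and chaperones made up 6 members, of which 5 rose. Ncl (nucleolin), which binds nascent ribosomal RNA, had 1237, 1086 and 1270 CPM in serum and 1559, 1548 and 1897 CPM with FGF-2. The groups did not overlap, with a log2 fold change of 0.48 ± 0.14 (SE, edgeR adjusted p = 0.0203). That call was lost without serum library 1 or 2 (edgeR adjusted p = 0.0529 and 0.115). Npm1 (nucleophosmin), a chaperone of the granular part of the nucleolus, had 593, 519 and 660 CPM in serum and 804, 788 and 1169 CPM with FGF-2. FGF-2 library 3 stood well above the other two, and the log2 fold change of 0.64 ± 0.18 (edgeR adjusted p = 0.0138) was 0.55 without serum library 2, where it no longer passed (edgeR adjusted p = 0.0655). Ddx21, an RNA helicase of the nucleolus, had 231, 215 and 304 CPM in serum and 358, 354 and 481 CPM with FGF-2. In both groups the third library was the highest, all FGF-2 libraries lay above all serum libraries, and the log2 fold change was 0.67 ± 0.17 (edgeR adjusted p = 0.0092). Gnl3 (nucleostemin), a nucleolar GTP-binding protein of proliferating cells, had 337, 331 and 383 CPM in serum and 448, 453 and 532 CPM with FGF-2. Its log2 fold change was 0.45 ± 0.12 (edgeR adjusted p = 0.0132), which became 0.0538 and 0.0692 as adjusted p without serum libraries 1 and 2. Mybbp1a, a nucleolar protein that binds Myb and other transcription factors, had 856, 779 and 749 CPM in serum and 1059, 1124 and 953 CPM with FGF-2. Its groups did not overlap, the log2 fold change was 0.40 ± 0.13 (edgeR adjusted p = 0.0281), and the call was lost on leaving out any library except FGF-2 library 3 (edgeR adjusted p from 0.0507 to 0.121). Nolc1 (Nopp140), a shuttling chaperone of snoRNPs, had 387, 335 and 360 CPM in serum and 414, 431 and 424 CPM with FGF-2. The FGF-2 libraries were all higher, yet the log2 difference of 0.23 ± 0.11 did not pass (edgeR adjusted p = 0.104).

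RNA polymerase I has the 3 members Polr1a, its largest subunit, Polr1b, the second largest, and Polr1c, which it shares with RNA polymerase III. Polr1c had 70.4, 66.6 and 68.1 CPM in serum and 87.7, 89.7 and 94.3 CPM with FGF-2. All 3 FGF-2 libraries were higher, with little spread in either group, and the log2 fold change was 0.41 ± 0.10 (edgeR adjusted p = 0.00721). Polr1a had 341, 324 and 284 CPM in serum and 373, 363 and 292 CPM with FGF-2. The third library was the lowest of each group, the groups overlapped, and the log2 difference of 0.12 ± 0.13 did not pass (edgeR adjusted p = 0.49). Polr1b had 153, 149 and 159 CPM in serum and 201, 199 and 169 CPM with FGF-2, with a log2 fold change of 0.31 ± 0.11 (edgeR adjusted p = 0.0389). Without any library other than FGF-2 library 3 its call was lost (edgeR adjusted p from 0.0507 to 0.149).

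Factors of the small subunit made up 7 members, of which Nob1, Wdr43, Tsr1, Bysl and Heatr1 rose and Rrp12 and Nop14 did not pass. Nob1, the nuclease that makes the last cut of the small subunit RNA, had 89.7, 81.8 and 94.1 CPM in serum and 120, 121 and 126 CPM with FGF-2. Its groups were clearly apart, with a log2 fold change of 0.47 ± 0.10 (edgeR adjusted p = 0.00401). Tsr1, which keeps the immature subunit from early translation, rose from 192 ± 30.6 to 289 ± 35.0 CPM (log2 0.58 ± 0.14, edgeR adjusted p = 0.00791), and Wdr43, of the complex that first binds the precursor, from 193 ± 28.0 to 285 ± 30.9 CPM (log2 0.56 ± 0.13, edgeR adjusted p = 0.00715). Bysl, a late assembly factor, rose from 98.4 ± 8.52 to 128 ± 1.61 CPM (log2 0.39 ± 0.10, edgeR adjusted p = 0.0114, but 0.0553 and 0.0648 without serum libraries 1 and 2). Heatr1 acts in early processing and in transcription by RNA polymerase I. It rose from 243 ± 4.5 to 301 ± 27 CPM (log2 0.31 ± 0.11, edgeR adjusted p = 0.0392) and passed in only 1 of the 6 fits that left out a library, the one without FGF-2 library 3 (the others gave 0.0606 to 0.148). Rrp12, which takes part in export and maturation of the subunits, had 175, 164 and 195 CPM in serum and 196, 211 and 202 CPM with FGF-2. The lowest FGF-2 library was just above the highest serum library, and the log2 difference of 0.19 ± 0.11 did not pass (edgeR adjusted p = 0.164). Nop14 went from 90.1 ± 5.28 to 105 ± 2.61 CPM and its log2 difference of 0.22 ± 0.10 did not pass either (edgeR adjusted p = 0.0928).

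The PeBoW complex of Pes1, Bop1 and Wdr12 is needed for the large subunit RNAs. Wdr12 had 49.7, 51.7 and 57.4 CPM in serum and 74.3, 72.1 and 67.9 CPM with FGF-2. Every FGF-2 library was higher, with a log2 fold change of 0.44 ± 0.11 (edgeR adjusted p = 0.008). Its partner Bop1 had 137, 135 and 123 CPM in serum and 139, 148 and 136 CPM with FGF-2. Those groups overlapped, and the log2 difference of 0.10 ± 0.10 did not pass (edgeR adjusted p = 0.426). Pes1 rose from 122 ± 12.3 to 156 ± 7.54 CPM (log2 0.35 ± 0.11, edgeR adjusted p = 0.0239, but 0.104 and 0.0543 without serum libraries 2 and 3). Whether Wdr12 and Bop1 differed from each other was not tested.

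Of the 6 other large subunit factors 5 rose. Nop16, a nucleolar protein of early large subunit particles, had 62.1, 61.6 and 64.9 CPM in serum and 91.0, 83.9 and 96.9 CPM with FGF-2. The groups were well apart and the log2 fold change was 0.53 ± 0.10 (edgeR adjusted p = 0.00252). Noc2l, a protein of the large subunit path that is also known as a histone acetyltransferase inhibitor, had 443, 414 and 505 CPM in serum and 522, 560 and 551 CPM with FGF-2. Serum library 3 came near the FGF-2 libraries, and the log2 difference of 0.26 ± 0.12 did not pass (edgeR adjusted p = 0.0953) unless serum library 3 was left out (0.35, edgeR adjusted p = 0.0337). Nop2, an RNA cytosine methyltransferase, rose from 278 ± 18.0 to 366 ± 8.57 CPM (log2 0.40 ± 0.10, edgeR adjusted p = 0.0117, but 0.0786 without serum library 2). The other three were Rrs1 at a log2 change of 0.43 ± 0.13, Ppan at 0.42 ± 0.11 and Wdr74 at 0.37 ± 0.11 (edgeR adjusted p = 0.0214, 0.0125 and 0.0218). Without serum library 2 these calls were lost (edgeR adjusted p = 0.0907, 0.0768 and 0.113), as were that of Ppan without serum library 1 (0.0528) and that of Wdr74 without FGF-2 library 2 (0.0515).

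The count of 23 fell whichever library was left out, to 15, 9 and 20 members without serum library 1, 2 and 3 and to 19, 17 and 22 without FGF-2 library 1, 2 and 3. The 9 members that passed whichever library was left out were Rrp9, Gar1, Ddx21, Polr1c, Wdr43, Tsr1, Nob1, Wdr12 and Nop16. They come from all the roles listed above. The median log2 fold change was between 0.36 and 0.43 in those 6 fits, and between 0.38 and 0.45 above the median of all genes.

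The scaling between libraries set the count as well. TMM is built so that genes with a large rise do not count as a fall of all the others, whereas library totals leave the sum of all genes equal. Under upper-quartile scaling 10 members rose and 0 fell, when 15.6% of all genes rose and 32% fell, and the median of the members was 0.26 against -0.16 for all genes. With library totals as the only scaling Rrp9 alone rose (log2 0.34, edgeR adjusted p = 0.0205) and 0 fell, when 9.98% of all genes rose and 45.1% fell, and the medians were 0.064 and -0.36. By library totals the log2 fold changes were above 0 in 21 of 31 members, and below 0 in Dkc1, Nhp2, Nolc1, Polr1a, Polr1b, Heatr1, Nop14, Rrp12, Bop1 and Noc2l. On that scale the FGF-2 libraries lay above the serum libraries without overlap for 6 members (Rrp9, Gar1, Wdr43, Tsr1, Nob1 and Nop16) and below them for 2 (Nolc1 and Rrp12), against 12.5% and 50.2% of all genes. Rrp9 on this scale had 86.8, 75.5 and 88.4 CPM in serum and 109, 104 and 104 CPM with FGF-2, and Polr1a had 391, 373 and 305 against 339, 324 and 251 CPM.

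Read as a plain share of each library, the 32 members together took 0.846%, 0.771% and 0.813% of the gene reads in serum and 0.840%, 0.835% and 0.887% with FGF-2. These shares overlapped between the groups. Each scaling shifts all genes alike, so the position of the members among the other genes hardly changes, by construction. All 31 had a log2 fold change above the median gene, at percentiles from 57.8 to 88.0 among all genes (TMM). The median of the members minus that of all genes was 0.428 under TMM, 0.428 under upper-quartile scaling and 0.427 with library totals. This constancy is not a separate result. The counts alone do not say which scaling matches the amount of RNA per cell.

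**Figure D2:**
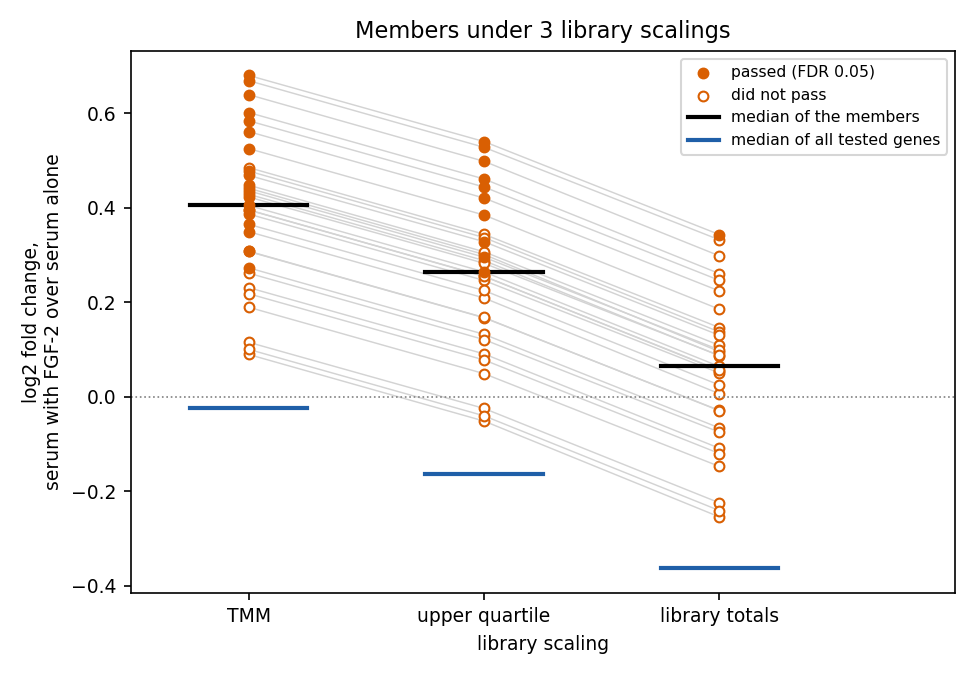
Log2 fold change of each of the 31 tested members (vertical axis) under TMM, upper-quartile and library-total scaling (horizontal axis). Each point is a member, joined by a line across scalings, filled where it passed at an FDR of 0.05. Black bars mark the median of the members and blue bars that of all tested genes. The members' median falls from 0.41 to 0.26 and 0.064. The all-gene median falls with it by construction, and the gap between the bars stays at 0.43.

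A comparison that no scaling can alter is that of the members with each other, taking each gene's log2 level minus the median member of the same library. Rrp9 lay highest, at a mean shift of 0.34 log2 units between FGF-2 and serum, and Gar1 (0.25), Wdr43 (0.22) and Nob1 (0.12) also had every FGF-2 library above every serum library. Rrp12 (-0.16) and Nop14 (-0.13) had every FGF-2 library below every serum library. These are 4 members up and 2 down of 31, while 11.8% of all genes lay above and 48.9% below without overlap when set against the same median. The largest downward shifts were those of Nhp2 (-0.26), Bop1 (-0.25) and Polr1a (-0.24), whose libraries overlapped. The ratio of Ddx21 to Polr1a showed how far the libraries of 1 group can differ: as log2 it was -0.56, -0.59 and 0.098 in serum and -0.060, -0.036 and 0.72 with FGF-2. The third library of each group thus stood higher than its 2 partners by more than 0.6 log2 units, and serum library 3 lay above FGF-2 libraries 1 and 2.

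**Figure D3:**
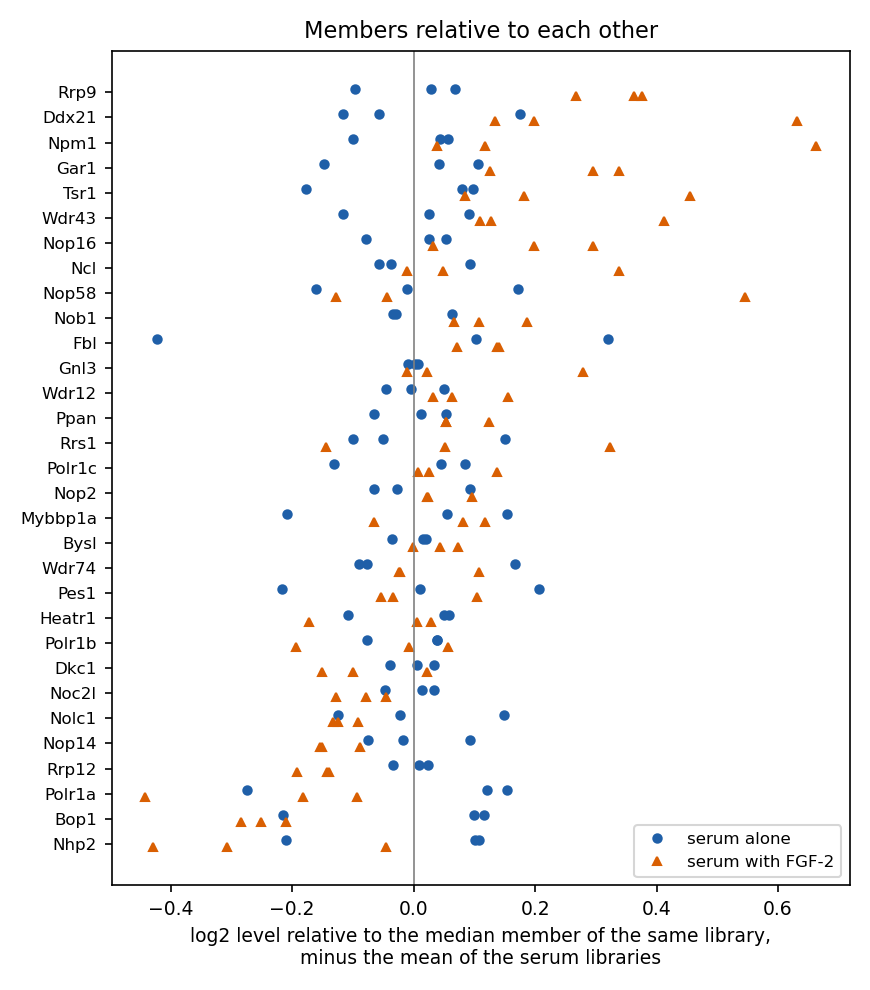
Log2 level of each tested member relative to the median member of the same library, minus the mean of the 3 serum libraries (horizontal axis), with circles for serum and triangles for serum with FGF-2, ordered by the mean shift. Triangles lie to the right of all circles for Rrp9, Gar1, Wdr43 and Nob1 and to the left for Rrp12 and Nop14.

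The other genes of the pathway rose more often than they fell on the TMM scale. By library totals as many rose as fell, while among all genes falls were far more frequent than rises. Of 134 further ribosome biogenesis genes 125 were tested, of which 68 rose and 4 fell, with a median log2 fold change of 0.36. Of all genes 22.1% rose and 24.2% fell under TMM. With upper-quartile scaling 48 of the 125 rose and 5 fell, when 15.6% of all genes rose and 32% fell. With library totals 10 of the 125 rose and 10 fell, when 9.98% of all genes rose and 45.1% fell. Without serum library 2 the TMM counts were 44 and 0. Among 12 tested partners of RNA polymerase I, which are its other subunits, its initiation factors, the termination factor Ttf1 and Tcof1 (treacle), 8 rose and 0 fell under TMM, 5 rose and 1 fell under upper-quartile scaling and 1 rose and 1 fell by library totals. The 8 became 5, 4 and 5 without serum library 1, serum library 2 and FGF-2 library 3. Taf1a, a subunit of the SL1 factor that recruits the polymerase to the ribosomal DNA promoter, had 17.0, 18.4 and 24.7 CPM in serum and 117, 89.1 and 166 CPM with FGF-2. It stood far from every other gene of the pathway, with a log2 fold change of 2.64 ± 0.25 (edgeR adjusted p = 0.000131) under TMM and 2.29 by library totals. The SL1 subunits Taf1c and Taf1d rose by 0.56 and 0.51 and Taf1b did not pass (0.10, edgeR adjusted p = 0.668). Ubtf, the architectural factor of ribosomal DNA, was the lowest of the group at -0.19 ± 0.10 (edgeR adjusted p = 0.155), and it fell under upper-quartile scaling (-0.33, edgeR adjusted p = 0.0245) and library totals (-0.53, edgeR adjusted p = 0.00271). The polymerase subunits Polr1d (0.53), Polr1e (0.69), Twistnb (0.76) and Cd3eap (0.34) and the initiation factor Rrn3 (0.32) rose under TMM, while Polr1d, Polr1e and Twistnb also rose under upper-quartile scaling and none of the 5 rose by library totals.

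Assembly factors follow with their TMM values, on a scale where 22.1% of all genes rose and 24.2% fell. Of 45 other small subunit factors 25 rose and 0 fell, from Tsr3 at 0.0098 to the kinase Riok1 at 0.86 ± 0.11 (edgeR adjusted p = 0.000297). Of 47 other large subunit factors 30 rose and 0 fell, from Ddx55 at -0.057 to Nmd3, the export adaptor of the large subunit, at 0.94 ± 0.16 (edgeR adjusted p = 0.00132). Of 11 genes in the list of other snoRNP genes 3 rose and 1 fell, between Pih1d1, a cofactor of snoRNP assembly, at -0.38 ± 0.13 (edgeR adjusted p = 0.0386) and Nhp2l1, a protein of the box C/D core, at 0.63 ± 0.11 (edgeR adjusted p = 0.00117). Nol8 and Nol12 of this list are nucleolar proteins and not snoRNP parts, and Nol12 (0.43, edgeR adjusted p = 0.0133) was among the 3. The call of Pih1d1 held only without serum library 1 among the 6 fits that left out a library (the others gave 0.0574 to 0.163). The list of the exosome, which trims the ribosomal RNA ends, had 2 genes that rose, Exosc3 and Rrp8, and 3 that fell of 10. Rrp8 is a ribosomal RNA methyltransferase and not an exosome subunit. Values ran from Exosc7 at -0.41 ± 0.15 (edgeR adjusted p = 0.0451) to Exosc3 at 0.48 ± 0.13 (edgeR adjusted p = 0.012). Exosc7 kept its call in only 2 of these fits, those that left out the third library of a group (the others gave 0.0655 to 0.167).

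The subunits of RNA polymerases II and III, the latter of which makes the 5S ribosomal RNA, were also counted, and the difference between the lists was not tested. Under TMM 22.1% of all genes rose and 24.2% fell. RNA polymerase II subunits had 1 that rose (Polr2f, 0.40 ± 0.12, edgeR adjusted p = 0.0167) and 1 that fell (Polr2i, -0.49 ± 0.18, edgeR adjusted p = 0.048) of 10, with a median of -0.0049. Polr2e, Polr2f, Polr2k and Polr2l of this list are shared with RNA polymerases I and III, so the list is not separate from RNA polymerase I. RNA polymerase III subunits had 4 that rose and 1 that fell of 11, from Polr3gl at -0.63 ± 0.22 (edgeR adjusted p = 0.0409) to Polr3d at 0.85 ± 0.13 (edgeR adjusted p = 0.000572), with a median of 0.22. The calls of Polr2f, Polr2i and Polr3gl each failed on leaving out a single library, Polr2f without FGF-2 library 1 (edgeR adjusted p = 0.0629), Polr2i without serum library 2 (0.169) and Polr3gl without serum library 2 (0.165) among others. Cytosolic ribosomal protein genes, the structural parts that the members assemble, had 22 that rose (30.1%) and 0 that fell of 73 tested, with a median of 0.28. Their extremes, Rps27 at 0.0014 and Rpl34 at 0.56, were genes with under 4 CPM on average in both groups that did not pass. By upper-quartile scaling 3 rose, when 15.6% of all genes did. By library totals 0 rose and 1 fell, against 9.98% and 45.1% of all genes. When 1 library was left out the 22 became 6 (without serum library 2) to 33 (without FGF-2 library 2). Ribosomal protein genes have many near-identical processed copies in the genome, so their counts are uncertain.

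**Figure D4:**
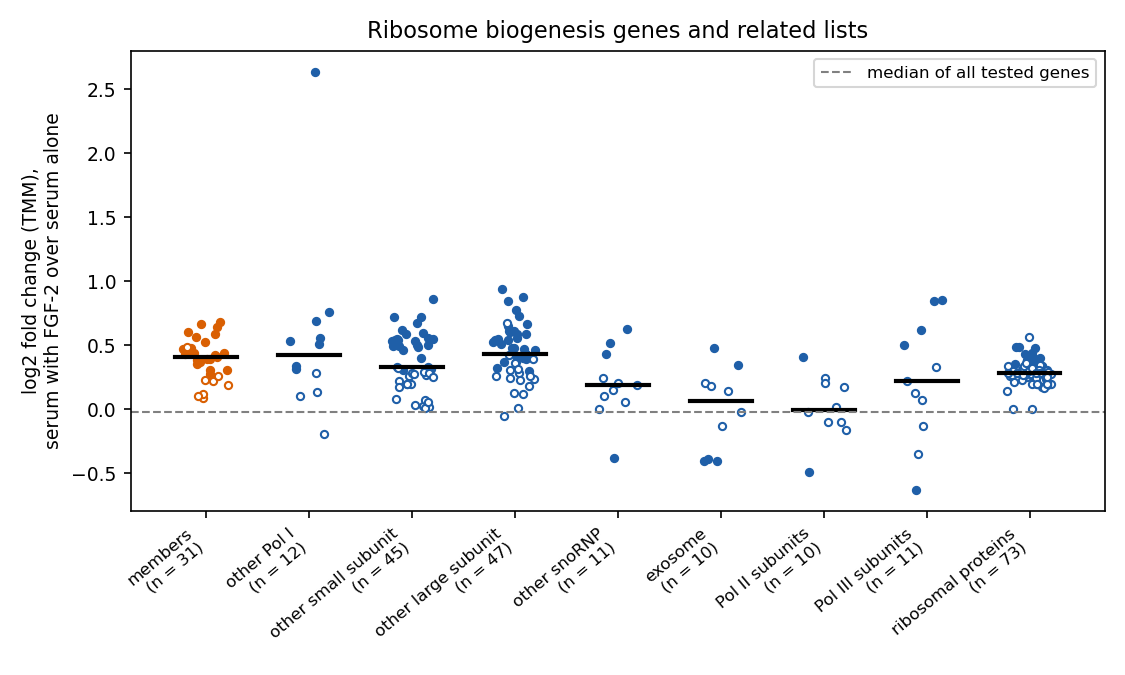
Log2 fold change under TMM scaling (vertical axis) of each tested gene in the members and in 8 related lists (horizontal axis, n is the number tested). Points are genes, filled where the edgeR test passed at an FDR of 0.05, black bars are list medians and the dashed line is the median of all tested genes. The members centre on 0.41, RNA polymerase II subunits, some of them shared with RNA polymerase I, on -0.0049, and Taf1a stands alone at 2.64.

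Many members share their locus with other transcripts. In RefSeq 8 of the 32 members (25.0%) hold 1 or more snoRNA genes, 21 in all, against 2.43% of 9595 tested protein-coding genes. The hosts are Nop56 with 5, Nop58 with 4, Gnl3 and Wdr43 with 3 each, Ncl and Ppan with 2 each, and Dkc1 and Tsr1 with 1 each. Another gene overlaps 13 members, the longest overlap being that of Tsr1 with Srr over 5314 bases, and without a stated strand setting the reads of overlapping genes cannot be assigned with certainty. Npm1 is known to have many processed copies in the genome, so its counts are uncertain as well. Between 7.52% and 8.30% of the listed reads in each library were ambiguous between genes.

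H3K27ac at the members' promoters was above the median promoter in both groups, and no region there passed the deposited test. The authors' table assigns regions to 28 of the 32 members, 47 regions in all, of which 34 lie within 1 kb of a start. Their median signal, in normalised reads per region, was 216 and 169 in the serum libraries and 184 and 194 in the FGF-2 libraries, against 136, 104, 119 and 130 for all 12484 promoter regions, and their median width was 1678.5 against 1366 bases. At an FDR of 0.05 the authors' deposited table called 0 of the 34, when it called 2.70% of all promoter regions, 2.02% higher and 0.681% lower. In simulated data edgeR found 9% of 2-fold and 67% of 4-fold changes, and limma 7% and 61%. Most 2-fold changes were thus missed there, and the deposited test itself was not simulated. The unadjusted p was under 0.05 for 2 of the 34, and edgeR on the whole reads recovered from the table called 2 lower, the same 2 regions at Nolc1 and Nop58. Over all 40772 regions edgeR called 7041, against 4069 in the deposited table. The median deposited log2 fold was 0.065, beside 0.040 for all promoter regions, and 20 of 34 were above 0. These medians depended on the scaling too, at -0.057 and -0.085 with edgeR on the recovered reads and -0.050 and -0.078 with equal totals over all regions, and ran from -0.16 to 0.26 for the members when 1 library was left out. The FGF-2 libraries lay above both serum libraries for 4 of the 34 and below for 9, against 21.1% and 12.9% of all promoter regions. Over all 47 regions these counts were 7 and 13, against 33.6% and 18.0% of all regions.

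The extremes among these promoter regions show how wide the spread between 2 libraries was. Heatr1 had the largest fold, with a signal of 63.5 and 40.1 in serum and 73.2 and 91.0 with FGF-2 (deposited log2 fold 0.66, FDR 0.285). Both FGF-2 libraries were higher than both serum libraries, as they were at Polr1b (88.4 and 81.1 against 111 and 107, log2 fold 0.37, FDR 0.55). Wdr74 had 126 and 83.6 in serum and 124 and 144 with FGF-2 (log2 fold 0.35, FDR 0.571), so its groups overlapped. Without serum library 1 the log2 folds (limma on log2 signal) were 1.03 at Heatr1, 0.54 at Wdr43 and 0.67 at Wdr74. The median over all promoter regions was then 0.25. At the other end were regions beside the main promoter peak. A region upstream of Nolc1 had 69.1 and 36.8 in serum and 27.6 and 28.0 with FGF-2 (log2 fold -0.93, FDR 0.231), and one upstream of Nop58 had 164 and 145 against 105 and 84.0 (log2 fold -0.71, FDR 0.0702). The region upstream of Dkc1 was weak, at 20.3 and 17.6 against 12.4 and 13.0 (log2 fold -0.58, FDR 0.743). Without serum library 2 the regions upstream of Nolc1 and Nop58 had limma log2 folds of -1.31 and -0.81, beside a median of -0.15 over all promoter regions. The main regions over the starts of Nolc1 and Nop58 had log2 folds of -0.17 and -0.22.

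The RNA and promoter values of the same members can be set side by side. Of the 21 members that rose and had a promoter region, 16 had a deposited log2 fold above 0 at the region nearest to the start, as did 19 of all 28 with a region and 55.0% of all promoter regions. These counts rest on the deposited scaling, since edgeR on the recovered reads gave 9 of the 21 and 9 of the 28. The median over all promoter regions was itself -0.085 with edgeR, and the share of them above 0 was not counted there. Rrp9, the first of the RNA list, had 95.8 and 78.6 in serum and 74.2 and 77.0 with FGF-2 at its start (log2 fold -0.21, FDR 0.831). Of the members with printed motif sequences, Wdr43 had a promoter log2 fold of 0.23, Tsr1 0.17, Pes1 -0.05 and Nop2 -0.22. Across the 28 members Spearman's rho between the RNA and promoter log2 folds was 0.19 and Pearson's r 0.11, values given as a description of genes that share the same libraries. In the authors' peak lists a peak lay within 1 kb of the start of 27 of 27 members with a RefSeq start in each of the 4 libraries, against 88.7% to 89.9% of tested genes. The fold enrichment over input, as the authors' peak caller gave it, was highest at Gnl3, between 60.7 and 70.4.

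Nop56, Bysl, Wdr12 and Noc2l have no region under their own name because the authors' annotation gave the region over their start to a neighbour, Snord110, Usp49, Carf and Klhl17. The region at Nop56 had 511 and 412 in serum and 506 and 502 with FGF-2 (log2 fold 0.13, FDR 0.826), and that at Noc2l 447 and 290 against 273 and 326 (log2 fold -0.30, FDR 0.558). Found by position, regions of this kind at 7 members had 0 that passed, with deposited FDRs of at least 0.351, although edgeR on the recovered reads called the one at Nop14 lower (-0.58, edgeR adjusted p = 0.0317).

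One region of a member passed. It lies in intron 13 of 20 of Polr1a, at chr6:71935022-71935765 (build mm10), 25969 bases into the gene, and fell from 46.0 and 30.9 in serum to 7.61 and 11 with FGF-2. Both FGF-2 libraries were far below both serum libraries, with a deposited log2 fold of -2.05 and an FDR of 0.0113 in the authors' deposited table, where 9.98% of all 40772 regions passed, 8.34% higher and 1.64% lower. In each of the 8 other fits, which included leaving out each library, it passed with log2 folds from -2.33 to -1.76. Leaving out a chromatin library leaves 1 in its group, which these fits assume to vary like the other group, here and for the promoter regions above. The regions on both sides of it were also lower with FGF-2 but did not pass in the deposited table, at chr6:71934045-71934751 with 35.0 and 20.9 against 16.2 and 16.0 (log2 fold -0.80, FDR 0.512) and at chr6:71935935-71936570 with 32.2 and 28.4 against 14.3 and 13.0 (log2 fold -1.15, FDR 0.233). The latter passed with edgeR on the recovered reads (-1.28, edgeR adjusted p = 0.0443). The promoter of Polr1a itself, with 280 and 227 against 250 and 230, had a log2 fold of -0.08 (FDR 0.925), and its transcript did not pass on any scaling, with TMM, upper-quartile and library-total log2 differences of 0.12, -0.025 and -0.22. The other genes annotated inside Polr1a, Gm19078 and Gm26628, do not overlap this region.

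**Figure D5:**
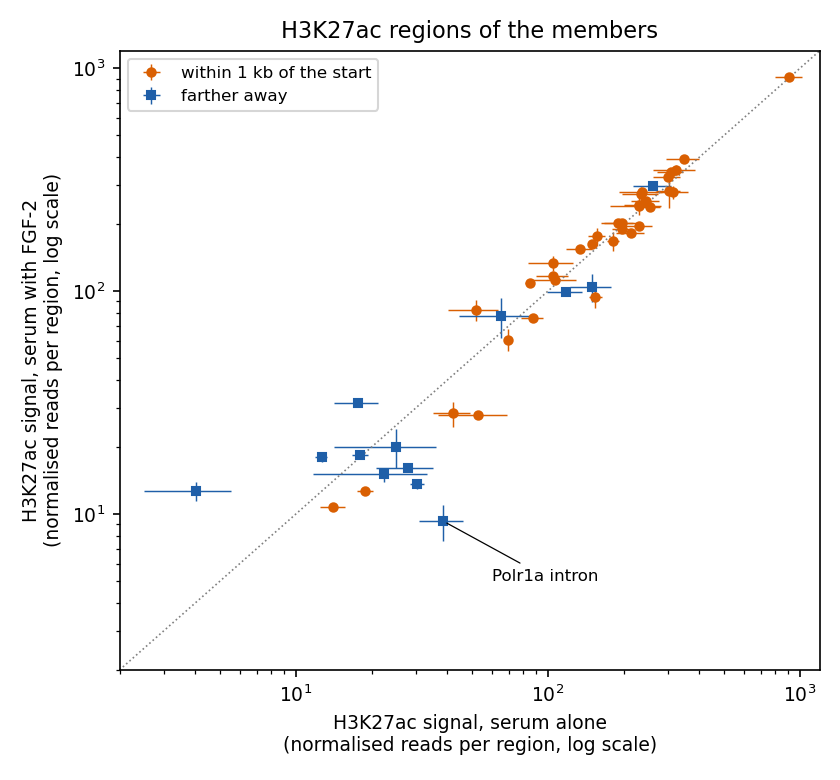
H3K27ac signal of the 47 regions assigned to members, in normalised reads per region on log axes, as the mean of the 2 serum libraries (horizontal) and of the 2 FGF-2 libraries (vertical). Bars run from the lower to the higher library of each group, circles are regions within 1 kb of a start and squares are regions farther away, and the dotted line marks equal signal. The promoter regions follow the line, and the Polr1a intron region lies below it.

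Among the other ribosome biogenesis genes 126 promoter regions were tested in the authors' deposited table, and 1 rose, at Efl1, a GTPase of large subunit maturation (82.0 and 48.5 against 175 and 111, log2 fold 1.13, FDR 0.0106). Taf1a, whose transcript rose most, had a small region 2748 bases from its start that rose from 2.76 and 5.01 to 23.8 and 17.0 (log2 fold 2.39, FDR 0.0479). A pair of regions at Exosc6, between 2 and 3 kb from its start, fell, from 33.2 and 28.4 to 5.71 and 7.0 (log2 fold -2.28, FDR 0.0131) and from 16.6 and 12.5 to 0.95 and 1.0 (log2 fold -3.9, FDR 0.0371). Away from promoters, regions assigned to Krr1 (log2 fold 1.62), Bms1 (3.02 and 3.56), Ddx51 (1.01) and an intron of Efl1 (2.5) rose. The Krr1 and Bms1 regions lie between genes, those of Bms1 51826 and 50975 bases from its start. In serum the Bms1 regions were weak (8.29 and 2.51, 0.92 and 4.18), as was the Efl1 intron (6.45 and 1.67). Of all 28288 regions farther than 1 kb from a start, 3147 passed as higher and 585 as lower. The number of such regions tested for these genes is not given here. Ribosomal protein genes had 0 of 68 promoter regions past the threshold, with 0 at an unadjusted p under 0.05, in the authors' deposited table. Of all promoter regions 2.02% passed as higher and 0.681% as lower.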

How the data were processed

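Groups were taken from the sample titles. RNA values are read counts per gene that the authors deposited, made with STAR 2.5.2a and HTSeq 0.10.0 on mm10, per the submitters' processing notes; the annotation and whether counting used strand are not stated there. Reads outside 1 gene (37.0% to 43.2%) stayed out of library sizes. Counts were tested with edgeR 4.0.16 (R 4.3.3; TMM, filterByExpr, robust quasi-likelihood, FDR 0.05), with DESeq2 1.42.0 and limma-voom 3.58.1 as alternatives. The authors' DESeq2 table (log2 fold changes, p-values, a Wald score and a mean signal, per the file headers) gave 24 members higher and 0 lower, and was used only for that. Chromatin was cross-linked after frozen cells had thawed, per the labels' protocols. The H3K27ac table holds the authors' DiffBind signal per region, log2 fold and p-value; 100% of its values were whole reads (within 0.02 reads) after dividing by a step per library. The MACS2 2.2.6 peak lists of single libraries hold pileup signal, fold enrichment and −log10 p- and q-values at a q of 0.01, per the file headers; fragments numbered 11840994 to 14156846. The 4 input libraries served only as the background in these lists.

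Values are means with SD over libraries; limits from counts cover counting error only. A promoter region lies within 1 kb of the start in the deposited table. RefSeq tables are of GRCm38.p6, the same assembly as mm10. Levels were not compared between genes. The members and lists were chosen with earlier results of these data known. Named in full were, per role, the members with the smallest and largest edgeR p, the 5 members of highest level, and the extremes of each other list; other members were added to account for all 32. Older symbols were used for Snu13 (Nhp2l1), Polr1f (Twistnb) and Polr1g (Cd3eap). Replicates differed by more than sampling noise (chi-square per degree of freedom 9.06 to 24.0). The RNA and H3K27ac fits were tested on simulated data with known changes. The RNA fit recovered 81.6% of 2-fold and 98.0% of 4-fold changes. For H3K27ac, with changes placed among regions of all signal levels, edgeR recovered 9% and 67% and limma 7% and 61%. Alternatives were other scalings, low-count filters, tools, thresholds, a replicate block and leaving out each library; those for the related lists and the Polr1a region were added after seeing the data.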

Additional observations from a re-analysis of the deposited data

How the results depend on the processing

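The number of members that rose was 23 and became 10 (upper-quartile scaling), 1 (library totals), 9 at an FDR of 0.01 and 9 to 22 when 1 library was left out; it was 20 to 24 under the other 7 alternatives run. Their median log2 fold change of 0.41 moved to 0.26 and 0.064 under these scalings. The 68 other ribosome biogenesis genes that rose became 10 with library totals, 42 at an FDR of 0.01 and 44 to 73 when 1 library was left out, and the 4 that fell became 0 with DESeq2 and 0 to 3 when 1 library was left out. For the 34 promoter regions, of which 0 passed, edgeR on recovered reads gave 2, equal totals over all regions 1 and an FDR of 0.10 1. Of all 40772 regions, edgeR called 7041 and equal totals 5682, against 4069 in the deposited table. When 1 library was left out, the median log2 fold of the 34 ran from -0.16 to 0.26.

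Below 0 with library totals were Dkc1 (-0.066), Nhp2 (-0.25), Nolc1 (-0.11), Polr1a (-0.22), Polr1b (-0.029), Heatr1 (-0.030), Nop14 (-0.12), Rrp12 (-0.15), Bop1 (-0.24), Noc2l (-0.075), Tsr3 (-0.33) and Rps27 (-0.34), and with upper-quartile scaling Nhp2 (-0.051), Polr1a (-0.025), Bop1 (-0.040), Tsr3 (-0.13) and Rps27 (-0.14). Leaving out 1 library gave -0.0070 to 0.16 for Nhp2, -0.058 to 0.049 for Tsr3 and -0.23 to 0.23 for Rps27, and a minimum mean of 5 CPM gave -0.015 for Tsr3. Of 465 values of single members under 15 alternatives, 369 kept direction and side of the threshold, 77 no longer passed, 5 newly passed and 14 changed sign. Apart from the scalings, whose construction shifts all genes alike (all-gene median by -0.14 and -0.34), the cause was not tested.

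The replicate numbers did not pair RNA libraries 1 and 2, whose deviations correlated at -0.10 and 0.066 with the same number. Serum library 1 correlated best with FGF-2 library 2 (0.32) and serum library 2 with FGF-2 library 1 (0.38). The third libraries correlated at 0.38 with each other. With the other libraries of the opposite group they correlated at -0.33 to -0.18. Deviations from a group mean cancel within the group, so a positive correlation with a library forces a negative one with another, by construction. What the third libraries share was not tested. With the number as a block 21 members and 69 other ribosome biogenesis genes rose and the members' median was 0.40; with the block 0 promoter regions passed.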
